A study of Mus musculus with 162 samples.

Results

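Dlx1, Dlx2, Dlx5 and Dlx6 are 4 of the 22879 genes counted in single cells of the late embryonic mouse brain, and they were taken by name from the deposited tables. The study read the RNA of 162 cells at E17.5 to E18.5, each as cytosol drawn into a patch-clamp pipette. Cells came from 3 Cre driver lines: 22 from the Lhx6 line, 18 from the Nex line and 122 from the Htr3a line, named for genes of interneurons (Lhx6, Htr3a) and of glutamatergic neurons (Nex, or Neurod6). Quality control by the submitters left out 14 cells. Each cell that passed carries 1 of 9 type labels: MGE-derived 1 (18 cells), MGE-derived 2 (24), CGE-derived (11), GABAergic (4), Undefined (22), Cajal Retzius (12), VZ-derived (11), Glutamatergic 1 (33) and Glutamatergic 2 (13). MGE and CGE, not spelled out by the submitters, are taken to be the medial and the caudal ganglionic eminence, and VZ the ventricular zone. No label gives a reporter allele, strain, sex, animal or litter, so a driver line cannot be told apart from the animals and the day that supplied it.

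Dlx genes encode homeodomain transcription factors related to Distal-less of the fly. In the mouse forebrain they are made in the ganglionic eminences, where Dlx1 and Dlx2 act in progenitors and young neurons and are needed for interneurons to migrate into the cortex. Dlx5 and Dlx6 come on later in the same lineage and lie downstream of Dlx1 and Dlx2. The cortical progenitors that give rise to glutamatergic neurons do not normally make them. The genes sit as 2 convergent pairs: in GRCm38 with the GENCODE M21 annotation, Dlx1 (ENSMUSG00000041911, plus strand) spans chr2:71528113-71533981 and Dlx2 (ENSMUSG00000023391, minus strand) chr2:71543408-71546754, 9426 bases apart. Dlx6 (ENSMUSG00000029754, plus strand) spans chr6:6863334-6868568 and Dlx5 (ENSMUSG00000029755, minus strand) chr6:6877805-6882085, 9236 bases apart. Antisense transcripts cover 6.21% of the exon bases of Dlx1 (Dlx1as) and 4.38% of those of Dlx6 (Dlx6os1 and Dlx6os2). Whether reads were counted by strand is not given in the sources used here, so in those stretches sense and antisense reads may be mixed. The antisense genes were not analysed here.

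The 4 genes share a homeobox, the stretch that codes for the DNA-binding domain, and their most alike 90 coding bases are shown because reads from it could in principle be assigned to the wrong member. Capitals mark bases shared by all 4 genes, read 5′ to 3′ on the coding strand from the GENCODE M21 transcripts, and each stretch spans an intron in GRCm38.
Dlx1: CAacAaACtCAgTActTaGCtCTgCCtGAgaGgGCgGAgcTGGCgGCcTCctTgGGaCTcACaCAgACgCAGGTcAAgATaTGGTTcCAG
Dlx2: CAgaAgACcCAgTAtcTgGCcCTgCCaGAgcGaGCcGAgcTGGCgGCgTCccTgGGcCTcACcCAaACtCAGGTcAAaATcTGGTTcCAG
Dlx5: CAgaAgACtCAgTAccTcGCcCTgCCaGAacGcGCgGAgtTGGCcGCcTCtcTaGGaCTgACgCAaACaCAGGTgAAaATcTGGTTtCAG
Dlx6: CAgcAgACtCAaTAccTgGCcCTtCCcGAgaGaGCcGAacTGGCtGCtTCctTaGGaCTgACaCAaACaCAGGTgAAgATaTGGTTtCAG
The stretches lie at chr2:71531085-71532281, chr2:71544907-71545455, chr6:6878471-6879597 and chr6:6865200-6867058. All 4 genes carry the same base at 59 of the 90 positions, and 26 of the other 31 are the last base of a codon. Within the window, identity ran from 74.4% for Dlx1 with Dlx5 to 81.1% for Dlx2 with Dlx5. No pair of these genes shared a run of 30 bases anywhere in its annotated transcripts, even in this window.

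Passed cells held 1710224 to 24836041 counts and 2066 to 14810 genes with a count. Levels are in CPM, the counts of a gene scaled to a total of 1000000 for a cell or for the summed cells of a group. To compare groups, log2(CPM + 1) was averaged over the cells of each, and the second mean was taken from the first; SDs are between cells. Since no label separates animals, a group of cells is 1 sample and no difference was tested; a gene is called higher or lower where the difference reaches 1. A gene entered a comparison where 10% or more of the cells on either side held a count, and all 4 Dlx genes passed this filter unless stated. Intervals are 95%, exact Poisson for CPM and exact Clopper-Pearson for shares of cells, and cover counting error only. Where no cell of a group held a count, the limit given instead is 3 cells of the group's total, and it limits cells with a count, not cells that express the gene. How the submitters assigned the type labels is not given in the sources used here, and if they used expression in these cells, the Dlx genes may have contributed to the labels. Their defining markers were present in most types. The summed level of 5 GABAergic markers had a median of 1761 CPM in cells of the 4 interneuron labels and 0 CPM in cells of the 2 Glutamatergic labels, and the 6 Cajal-Retzius markers summed to 4230 to 19626 CPM in Cajal Retzius cells. The 8 ventricular zone progenitor markers had a median of 0 CPM in VZ-derived cells, and 9 glutamatergic neuron markers one of 1383 CPM there, so the VZ-derived label was not matched by progenitor markers.

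Dlx1 was high in every interneuron label and near absent from glutamatergic cells. MGE-derived 1 cells were the most uneven of the larger labels, with 5 of 18 cells at 0, a median of 112 CPM and a highest value of 1344 CPM. In MGE-derived 2 cells the range was 0 to 751 CPM with a median of 262, and 22 of 24 cells held it. In CGE-derived cells it ranged from 232 to 1115 CPM with a median of 487, and all 11 cells held it. The 4 GABAergic cells had 0, 48.4, 518 and 578 CPM. In Glutamatergic 1 cells 3 of 33 held a count, and 1 cell with 22.0 CPM gave 98.8% of the counts. None of 13 Glutamatergic 2 cells held one, which by that limit allows up to 23.1% of cells with a count. Of the 5 Cajal Retzius cells with a count, 2 had 72.6 and 75.8 CPM and 1 had 442 CPM.

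Dlx2 followed the same types with the highest single values of the family. MGE-derived 1 cells had a median of 28.4 CPM and a highest value of 708 CPM, and 11 of 18 cells held it. MGE-derived 2 cells had 0 to 2057 CPM with a median of 230, and 22 of 24 cells held it. CGE-derived cells had 149 to 992 CPM with a median of 602, and 11 of 11 cells held it. GABAergic cells had 0, 106, 377 and 1299 CPM. Outside the interneuron and Undefined labels, 3 cells carried nearly all Dlx2: 1 Cajal Retzius cell with 819 CPM, 1 Glutamatergic 1 cell with 738 CPM and 1 VZ-derived cell with 191 CPM. All other cells of those labels were at 13.1 CPM or below.

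Dlx5 was detected in fewer cells, and where present it was of similar height in each interneuron label. It ranged from 0 to 685 CPM in MGE-derived 1 (median 44.7), 0 to 314 CPM in MGE-derived 2 (median 65.5) and 0 to 291 CPM in CGE-derived cells (median 10.01). Shares of cells with a count were 11 of 18, 15 of 24 and 8 of 11. Among cells that held it, the median was 109 CPM in MGE-derived 1, 158 CPM in MGE-derived 2 and 133 CPM in CGE-derived cells. GABAergic cells had 0, 108, 505 and 263 CPM. The other labels held 1 positive cell each: 274 CPM in a VZ-derived cell, 171 CPM in a Glutamatergic 1 cell, 156 CPM in a Cajal Retzius cell and 11.7 CPM in a Glutamatergic 2 cell. Undefined cells were the exception, with 12 of 22 positive.

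Dlx6 was the lowest of the 4 genes and had no cell above 75.8 CPM. It was found in 7 of 18 MGE-derived 1 cells (0 to 37.1 CPM, median 0), 12 of 24 MGE-derived 2 cells (0 to 75.7 CPM, median 0.135) and 7 of 11 CGE-derived cells (0 to 75.8 CPM, median 8.16). GABAergic cells had 19.96, 12.8, 0 and 0 CPM. A single Glutamatergic 1 cell held 1.78 CPM and a single Glutamatergic 2 cell 0.110 CPM. No Cajal Retzius cell of 12 and no VZ-derived cell of 11 held a count. Between genes, levels are comparable only per kilobase of exon: over all 57 cells of the interneuron labels, Dlx2 reached 136 CPM per kb, Dlx1 66.5, Dlx5 52.7 and Dlx6 4.85. That order held in MGE-derived 2 and CGE-derived cells. In MGE-derived 1 cells Dlx1, at 65.8 CPM per kb, stood above Dlx2 at 49.1. In the 4 GABAergic cells Dlx5, at 101 CPM per kb, stood above Dlx1 at 55.1.

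**Figure D1:**
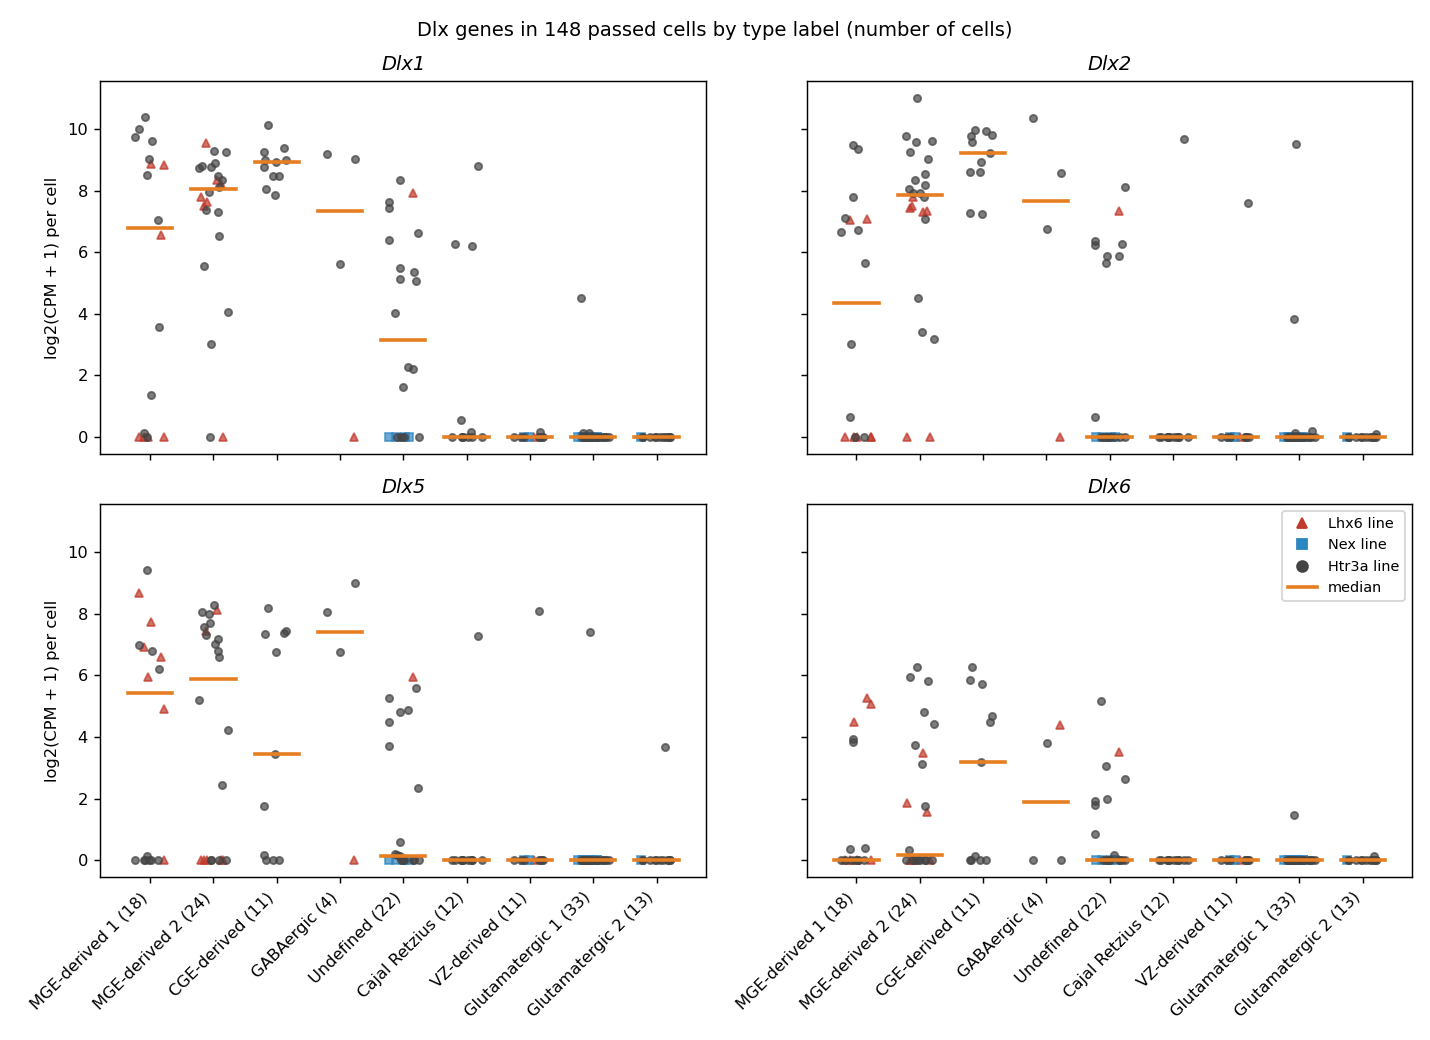
Level of each Dlx gene, log2(CPM + 1), in each passed cell by type label, with the number of cells in brackets; marker shape and colour give the driver line and the bar is the median over cells. The 4 interneuron labels on the left hold most positive cells, and all 17 Nex line cells sit at 0 in each panel.

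By the CPM of summed counts, CGE-derived cells came highest for Dlx1 (520 CPM), Dlx2 (657 CPM) and Dlx6 (21.9 CPM). For Dlx5 the 4 GABAergic cells came highest at 229 CPM, above MGE-derived 2 (113 CPM), MGE-derived 1 (103 CPM) and CGE-derived cells (97.9 CPM). The spread over cells was wider than the steps between neighbours in that order. For Dlx1, MGE-derived 1 followed at 355 CPM, GABAergic at 297 and MGE-derived 2 at 293, and these 3 overlapped fully in their single cells. The Dlx5 level of the GABAergic label was 120 CPM without its highest cell. That of MGE-derived 1 cells was 63.5 CPM without cell 8, which held 42.2% of the counts.

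Against the glutamatergic cells, all 4 genes were higher in the interneuron labels by at least 1 (log2), against 6.07% of the 13139 genes compared. Dlx1 held 359 CPM (interval 357 to 361) in the 57 interneuron cells, against 0.377 CPM (0.323 to 0.438) in the 46 glutamatergic cells. It was found in 86.0% (74.2 to 93.7) of interneuron cells, against 6.52% (1.37 to 17.9) of glutamatergic cells, and the means differed by 6.64 (log2; SD 3.40 and 0.67). For Dlx2 the sums were 387 CPM and 27.7 CPM, the shares 82.5% (70.1 to 91.3) and 10.9% (3.62 to 23.6), and the gap between the means 6.12 (log2; SD 3.53 and 1.501). Without 1 Glutamatergic 1 cell, cell 6, the glutamatergic level of Dlx2 was 0.0619 CPM.

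Dlx5 held 119 CPM in interneuron cells and 6.46 CPM in glutamatergic cells, with shares of 64.9% (51.1 to 77.1) and 4.35% (0.531 to 14.8), and its means differed by 3.94 (log2; SD 3.59 and 1.21). The same cell 6 gave 99.0% of the glutamatergic Dlx5 counts, and the level without it was 0.0665 CPM. Dlx6 held 11.5 CPM in interneuron cells and 0.0463 CPM in glutamatergic cells, with shares of 49.1% (35.6 to 62.7) and 4.35% (0.531 to 14.8). Its log2 difference was 1.81 (SD 2.31 and 0.22), and 0.70 with a pseudocount of 10 CPM, which is under the size called here. Single cells of both sides overlapped for each gene, since interneuron cells also reached 0. In the Htr3a line alone the differences were 7.27 for Dlx1, 7.08 for Dlx2, 4.02 for Dlx5 and 1.83 for Dlx6.

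**Figure D2:**
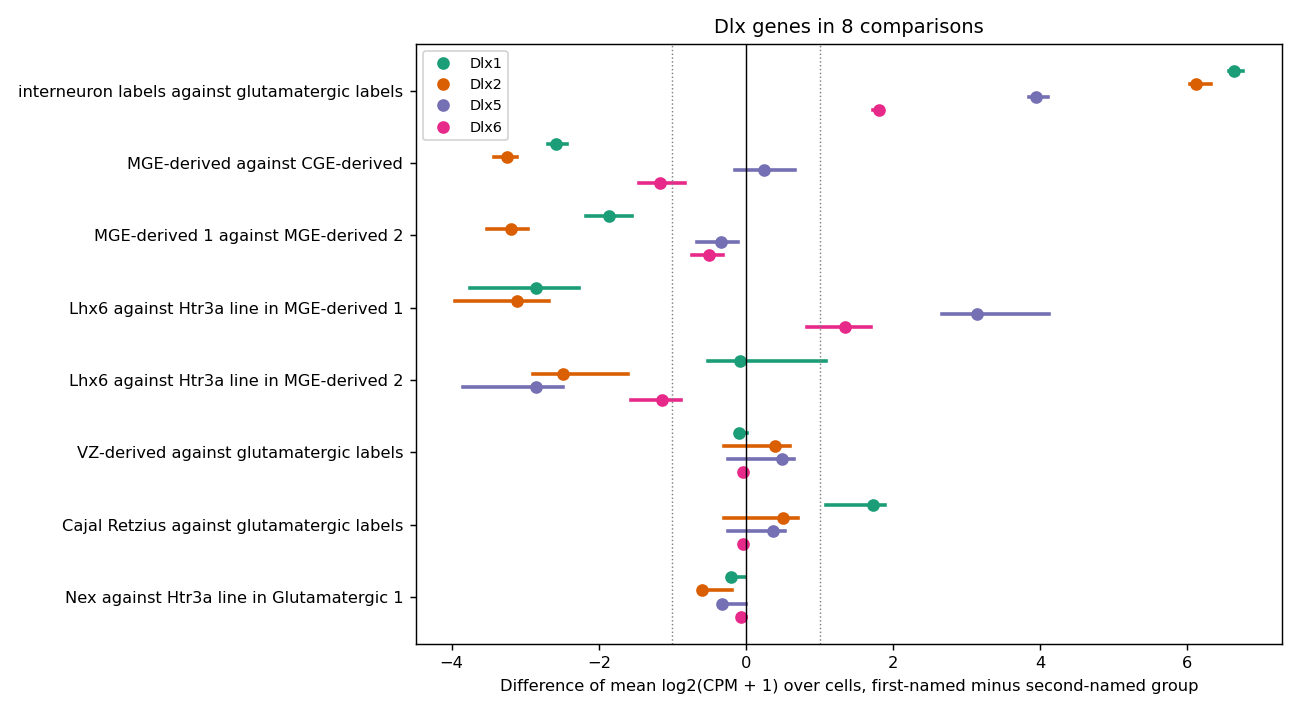
Difference of mean log2(CPM + 1) over cells for each Dlx gene in 8 comparisons, first-named minus second-named group; points are all cells, horizontal bars the lowest and highest value when each cell is left out in turn, and dotted lines mark a difference of 1 in size. All 4 genes lie above 1 for the interneuron labels, and Dlx5 lies on opposite sides of 0 for the Lhx6 line in the 2 MGE-derived labels.

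Outside the interneuron and Undefined labels, few cells held Dlx genes at the height seen in interneurons, and they carried markers of other types beside them. Cajal Retzius cell 12 had 442 CPM of Dlx1, 819 of Dlx2 and 156 of Dlx5, together with 14251 CPM of Reln (reelin) and 1050 of Trp73, which mark Cajal-Retzius cells. It also had 595 CPM of Lhx6 and 203 of Erbb4, genes of interneurons, while Gad1, Gad2 and Slc32a1, which make and load the transmitter GABA, were at 0. Glutamatergic 1 cell 6 had 738 CPM of Dlx2 and 171 of Dlx5 with none of Dlx1. It carried 366 CPM of Gad1 beside 481 CPM of Slc17a7, the vesicular glutamate transporter. Among other GABAergic markers, Gad2 stood at 0.0589 CPM, Slc32a1 at 4.83 and Erbb4 at 0. On the glutamatergic side, Neurod6 stood at 75.5 CPM and Tbr1 at 0. VZ-derived cell 3 had 274 CPM of Dlx5 alone, with 113 CPM of Lhx6, 2949 of Neurod6 and 277 of Meis2. VZ-derived cell 6 had 191 CPM of Dlx2 alone, with 663 CPM of Neurod6 and 596 of Reln. Reln was also high in some cells of the interneuron labels, with 2862 CPM in CGE-derived cell 1. In VZ-derived cells 3 and 6, Gad1, Gad2, Slc32a1 and Erbb4 were each at 0.0653 CPM or below. Whether RNA of a neighbouring cell entered these pipettes was not tested.

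Cajal Retzius cells exceeded glutamatergic cells by at least 1 for 1 of the 4 genes, against 34.0% of the genes compared. Dlx5 and Dlx6 were in too few cells to pass the filter there. The gene was Dlx1, with 50.9 CPM in Cajal Retzius cells and 0.377 CPM in glutamatergic cells, and means 1.73 apart (log2; SD 3.23 and 0.67). Without Cajal Retzius cell 12 its level was 14.4 CPM, and without that cell and Glutamatergic 1 cell 6 the difference was 1.09, while those of Dlx2 and Dlx5 were -0.09 and -0.08. VZ-derived cells exceeded glutamatergic cells by 1 in none of the 4 genes, of which only Dlx2 passed the filter, against 11.6% of genes. Their log2 differences were -0.09 for Dlx1, 0.39 for Dlx2, 0.50 for Dlx5 and -0.04 for Dlx6.

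MGE-derived cells differed from CGE-derived cells most in Dlx1 and Dlx2. MGE-derived cells, the 42 cells of both labels, had 318 CPM of Dlx1 and CGE-derived cells 520 CPM. In Dlx2 they had 293 CPM and CGE-derived cells 657 CPM. On the log2 scale the MGE-derived mean minus the CGE-derived mean was -2.58 for Dlx1 (SD 3.58 and 0.63) and -3.25 for Dlx2 (SD 3.61 and 0.99). Of the 42 MGE-derived cells 7 had no Dlx1 and 9 had no Dlx2, whereas no CGE-derived cell was below 149 CPM in either gene. With Dlx6 at -1.17 (8.80 CPM in MGE-derived and 21.9 CPM in CGE-derived cells), 3 of the 4 genes were lower in MGE-derived cells by at least 1, against 10.8% of the 12753 genes compared. None was higher, against 17.4% of genes. Dlx5 was at 109 CPM in MGE-derived and 97.9 CPM in CGE-derived cells, and its difference of 0.24 (log2; SD 3.60 and 3.57) turned to -0.15 with 1 cell left out. The Dlx6 difference was -0.82 without CGE-derived cell 8, and under 1 in size without any 1 of 4 other CGE-derived cells. All CGE-derived cells were of the Htr3a line. Against MGE-derived cells of that line the differences were -2.07 for Dlx1, -2.22 for Dlx2, 0.28 for Dlx5 and -1.16 for Dlx6.

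MGE-derived 1 cells had less Dlx2 than MGE-derived 2 cells, at 140 CPM against 396 CPM, a difference of means of -3.19 (log2; SD 3.78 and 2.86). Dlx1 went both ways. By the mean over cells it was lower in MGE-derived 1 (log2 difference -1.86, SD 4.38 and 2.68), but by summed counts it was 1.21-fold higher in MGE-derived 1 (355 CPM and 293 CPM), where single cells ran to 1344 CPM and 5 were at 0. These 2 of the 4 genes were lower by at least 1, against 22.6% of the 13837 genes compared. Dlx5 and Dlx6 differed by -0.34 and -0.50. Within the Htr3a line the same differences were -0.78 for Dlx1, -2.71 for Dlx2, -2.40 for Dlx5 and -1.36 for Dlx6, so the calls for Dlx1, Dlx5 and Dlx6 depended on the driver line.

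Within MGE-derived 1, the Lhx6 line was lower than the Htr3a line in Dlx1 and Dlx2 and higher in Dlx5 and Dlx6. Here the 7 Lhx6 line cells had 460, 451, 0, 0, 0, 0 and 92.6 CPM of Dlx1 (cells 1 to 7), against 0 to 1344 CPM with a median of 362 in the 11 Htr3a line cells. Of Dlx2 they had 0, 0, 0, 0, 132, 0 and 134 CPM, against 0 to 708 CPM with a median of 99.8. Of Dlx5 they had 212, 29.1, 411, 0, 120, 60.2 and 96.8 CPM, against 0 to 685 CPM with a median of 0. Dlx1 and Dlx2 were thus missing from most Lhx6 line cells of this label, while Dlx5 was present in 6 of 7. Dlx6 was present in 3 of 7 Lhx6 line cells, at 21.6 to 37.1 CPM, and in 4 of 11 Htr3a line cells, at 14.2 CPM or less. The log2 differences were -2.85 for Dlx1, -3.11 for Dlx2, 3.14 for Dlx5 and 1.35 for Dlx6. Thus 2 of the 4 genes were lower, against 16.2% of genes, and 2 were higher, against 28.3%. The Dlx6 value was 0.82 without MGE-derived 1 cell 7, 0.85 without cell 2 and 0.95 without cell 6.

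In MGE-derived 2, the 7 Lhx6 line cells had 751, 196, 0, 218, 325, 296 and 181 CPM of Dlx1, against 0 to 629 CPM with a median of 278 in the 17 Htr3a line cells. Dlx2 stood at 180, 220, 0, 0, 158, 162 and 173 CPM in the Lhx6 line cells, against 8.002 to 2057 CPM with a median of 287. Dlx5 stood at 171 and 276 CPM in cells 1 and 5 and at 0 in the other 5, against 0 to 314 CPM with a median of 109. For Dlx2, 13 of 17 Htr3a line cells lay above every Lhx6 line cell. The log2 differences were -0.08 for Dlx1, -2.49 for Dlx2, -2.86 for Dlx5 and -1.14 for Dlx6, so 3 of the 4 genes were lower, against 31.7% of genes. The median difference over all genes compared was -0.46 here and 0.24 in MGE-derived 1. Leaving out MGE-derived 2 cell 3, which lacks all 4 genes, moved Dlx1 to 1.09. The Dlx6 difference was under 1 in size without any 1 of 9 cells. Dlx2 was lower in the Lhx6 line within both labels, and Dlx5 had opposite signs in the 2 labels. The difference between the labels was not tested. Median genes with a count were 4741 in Lhx6 line and 4226 in Htr3a line cells of MGE-derived 1. In MGE-derived 2 they were 4540 and 6494. Over all MGE-derived cells, the Dlx5 level correlated with genes per cell at 0.45. The part of genes per cell in the line differences was not tested.

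**Figure D3:**
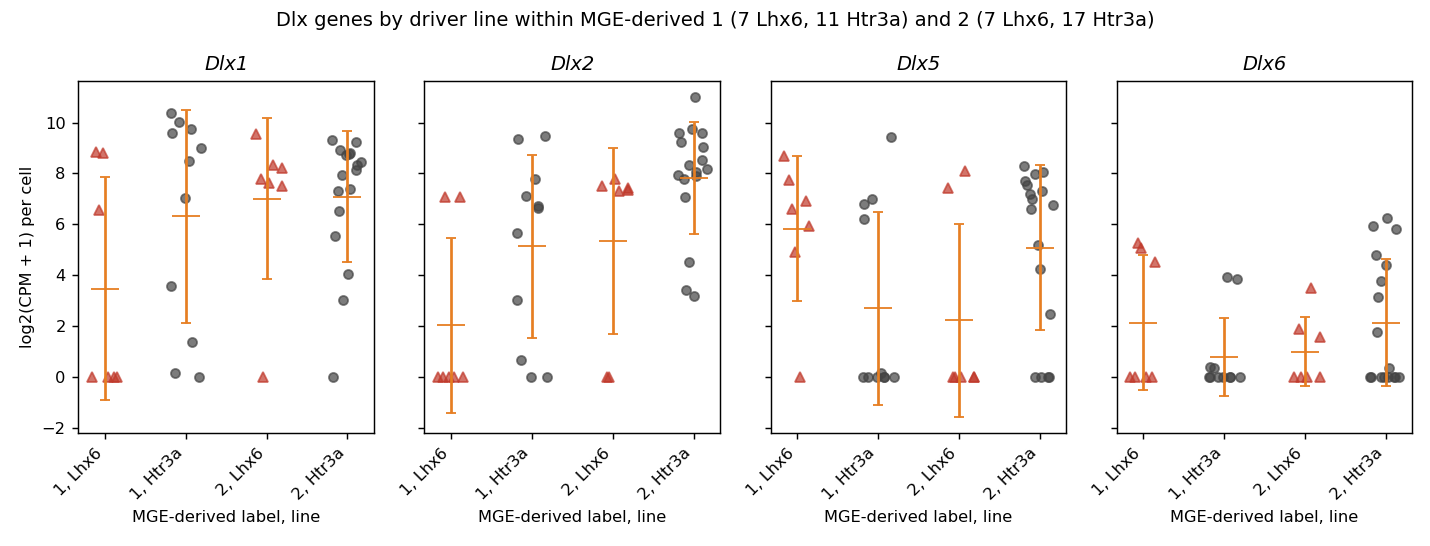
Level of each Dlx gene, log2(CPM + 1), in MGE-derived 1 and 2 cells of the Lhx6 line (triangles) and the Htr3a line (circles); horizontal ticks are means over cells and bars 1 SD. Dlx5 is present in 6 of 7 Lhx6 line cells of MGE-derived 1 and in 2 of 7 of MGE-derived 2.

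No cell of the Nex line held a count of any of the 4 genes. This covers 17 passed cells (10 Glutamatergic 1, 1 Glutamatergic 2, 2 VZ-derived and 4 Undefined) and allows up to 17.6% of such cells with a count. All 10 glutamatergic-label cells with a Dlx count came from the 35 of the Htr3a line. With at least 10 counts required, 5 of those 35 cells held a Dlx gene. Among Glutamatergic 1 cells, Nex minus Htr3a line differences were -0.21 for Dlx1, -0.60 for Dlx2, -0.32 for Dlx5 and -0.06 for Dlx6. None of the 4 was lower by 1 (Dlx1 and Dlx2 passed the filter), against 19.1% of genes. Nex line cells of this label held a median of 4311.5 genes with a count and Htr3a line cells 5183.

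Most interneuron cells held several Dlx genes at once. Of 57 cells, 19 held a count of all 4, 17 of 3, 15 of 2, 4 of 1 and 2 of none. The most frequent sets after all 4 were Dlx1, Dlx2 and Dlx5 (11 cells), Dlx1 and Dlx2 (10 cells) and Dlx1, Dlx2 and Dlx6 (4 cells). Dlx1 or Dlx2 was present in 52 cells and Dlx5 or Dlx6 in 43. All 4 genes were found together in 3 of 18 MGE-derived 1, 9 of 24 MGE-derived 2, 6 of 11 CGE-derived and 1 of 4 GABAergic cells, and in none of 46 glutamatergic cells, of which 36 had no Dlx gene. With at least 10 counts required, 15 interneuron cells held all 4, and with each cell thinned to 1000000 counts 15 did. Under each of these rules the number in MGE-derived 1 was 1 of 18.

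Dlx1 and Dlx2 were the pair most often found together, and also the 2 genes found in most cells (49 and 47 of 57). Both genes were present in 44 of the 57 cells, Dlx1 alone of the pair in 5, Dlx2 alone in 3 and neither in 5. Every CGE-derived cell held both. Dlx5 and Dlx6 were both present in 22 cells, Dlx5 alone of that pair in 15, Dlx6 alone in 6 and neither in 14. Of the 37 cells with Dlx5, 33 also held Dlx2 and 32 Dlx1. Conversely, 70.2% of the 47 cells with Dlx2 held Dlx5. These shares lie near those over all 57 cells, where Dlx2 was in 47, Dlx1 in 49 and Dlx5 in 37. The overlaps thus cannot show whether the genes go together. Among interneuron labels, 10 of 15 Lhx6 line cells held Dlx1 or Dlx2, and 42 of 42 Htr3a line cells did. Dlx5 or Dlx6 was found in 11 of those 15 Lhx6 line cells and in 32 of the 42 Htr3a line cells.

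**Figure D4:**
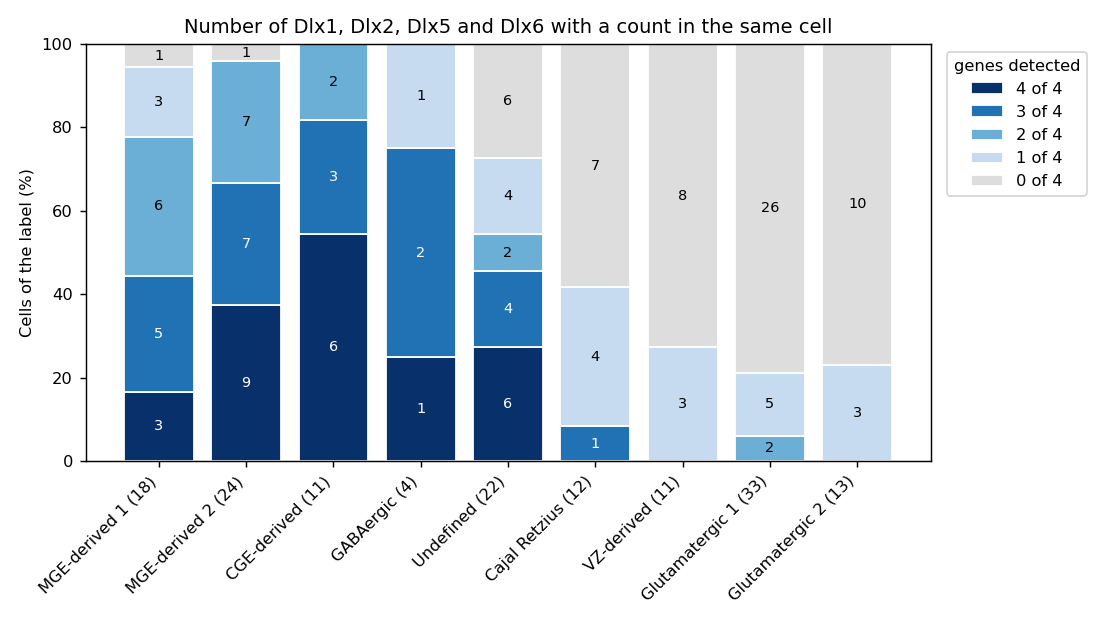
Share of the cells of each type label, in percent, that held a count of 0 to 4 of the Dlx genes, with the number of cells written in each segment and the label total in brackets. The largest segment is all 4 genes for CGE-derived cells (6 of 11) and none for both Glutamatergic labels (26 of 33 and 10 of 13).

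Over the 57 interneuron cells, Pearson's r of log2(CPM + 1) was 0.44 for Dlx1 with Dlx2, 0.26 for Dlx2 with Dlx5 and 0.10 for Dlx5 with Dlx6, and it lay between 0.02 and 0.11 for the other 3 pairs. Spearman's rho was 0.36, 0.29 and 0.08 for the first 3. Among cells holding both genes of a pair, r was 0.55 for Dlx1 with Dlx2 (44 cells), 0.41 for Dlx2 with Dlx6 (24 cells) and -0.31 for Dlx5 with Dlx6 (22 cells), and between 0.08 and 0.29 for the other 3 pairs. These are descriptions over cells of 4 type labels and differing depth, which can move both genes of a pair. Within the Htr3a line alone (42 cells) r was 0.24 for Dlx1 with Dlx2 and 0.34 for Dlx2 with Dlx5. In the 11 CGE-derived cells it was 0.03 for Dlx1 with Dlx2.

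Cells with all 4 Dlx genes were also those in which most genes were detected. The 19 interneuron cells with all 4 had a median of 7335 genes with a count (4540 to 14810), and the 38 cells with fewer had one of 4465 (2707 to 9510). All 19 had at least 4000 genes, as did 25 of the 38. The correlation of a gene's level with the number of genes per cell was 0.41 for Dlx5 and 0.34 for Dlx6, against 0.25 for Dlx2 and 0.04 for Dlx1. Markers of other cells differed too. The 8 ventricular zone progenitor markers summed to a median of 201 CPM (0 to 3628) in cells with all 4 Dlx genes and 1.69 CPM (0 to 991) in those with fewer. The 9 glutamatergic neuron markers had medians of 95.9 CPM (0.0888 to 1255) and 65.9 CPM (0 to 3478). The 8 microglia markers had medians of 0.420 CPM (0 to 12052) and 0.0811 CPM (0 to 12310). The part of genes per cell and of these markers in the co-detection was not tested.

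**Figure D5:**
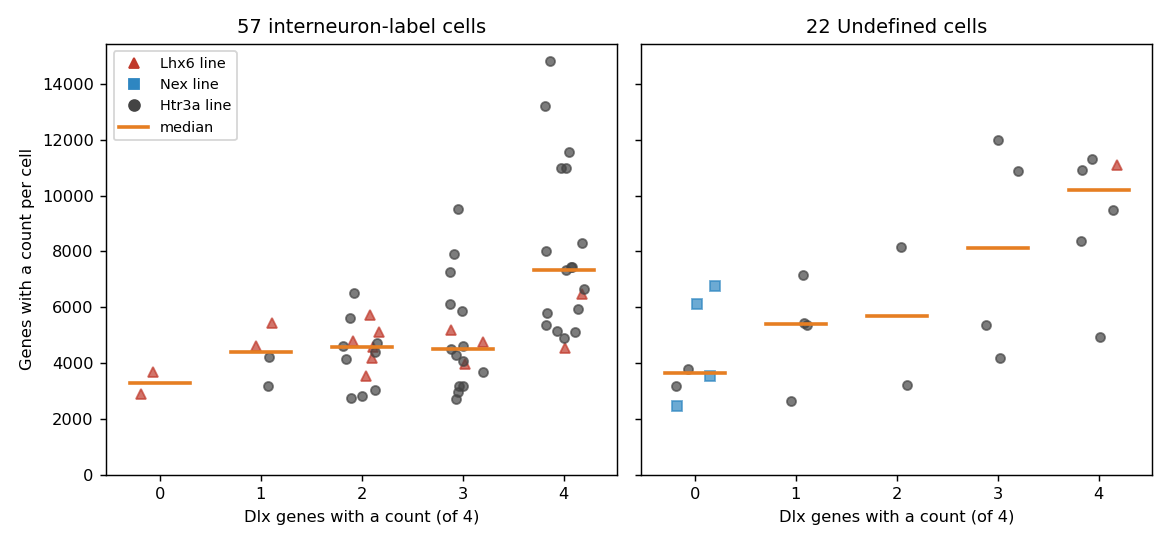
Number of genes with a count in each cell, by the number of Dlx genes detected in it, for the 57 interneuron-label cells (left) and the 22 Undefined cells (right); marker shape gives the driver line and bars are medians. Interneuron cells with all 4 Dlx genes have a median of 7335 genes, and the medians for 1, 2 and 3 Dlx genes lie between 4415 and 4559.

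Undefined cells, which the submitters put in no type, held Dlx genes in 16 of 22 cases, and 6 held all 4. By summed counts their levels were below those of each interneuron label, but single cells overlapped. Dlx1 ranged from 0 to 327 CPM (median 9.60) and Dlx2 from 0 to 278 CPM (median 0). For Dlx5 the range was 0 to 61.1 CPM (median 0.103) and for Dlx6 0 to 35.3 CPM (median 0). With at least 10 counts required, 15 Undefined cells held a Dlx gene. Of these, 13 also held Gad1 or Gad2, 14 held Neurod2 or Neurod6, transcription factors of glutamatergic neurons, and 13 held Dlx, Gad and Neurod transcripts alike. Neurod2 or Neurod6 was thus in 93.3% of the Undefined cells with a Dlx gene, against 29.6% (16 of 54) of such cells in the interneuron labels. At 10 counts, 7 Undefined cells held no Dlx gene. Of these, cells 3, 4, 19, 20 and 22 had Neurod6 at 79.4 CPM or more. Cells 10 and 21 had 0 CPM of both Neurod2 and Neurod6. Cells 19 to 22 were of the Nex line, named for Neurod6, and no Undefined cell with a Dlx gene was. Driver line and Dlx detection thus cannot be told apart for those cells. The 6 Undefined cells with all 4 Dlx genes had a median of 10200.5 genes with a count and those with fewer 5362. The part of mixed RNA in these cells was not tested.

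Nearly all cells of the interneuron labels held both Dlx and Gad transcripts. With at least 10 counts required, 53 of 57 cells held a Dlx gene and Gad1 or Gad2. A Dlx gene without Gad was held by 1 cell, and Gad without Dlx by 3. Since 54 cells held a Dlx gene and 56 held Gad, this overlap cannot show whether the 2 go together. The 2 cells without a count of any Dlx gene were both of the Lhx6 line. MGE-derived 1 cell 4 had 1289 CPM of Gad1 and 1724 CPM of Lhx6, and MGE-derived 2 cell 3 had 513 CPM of Gad1 and 2025 CPM of Lhx6. GABAergic cell 1, also of the Lhx6 line, held Dlx6 alone (19.96 CPM), with 89.3 CPM of Gad2 and 0 CPM of Lhx6.

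Over all passed cells, the genes whose level was most like each Dlx gene were mainly GABAergic genes and other Dlx genes. The measure was Pearson's r of log2(CPM + 1) over 12466 genes, which reflects type and depth as well. The 5 most like Dlx1 were Gad2 (r 0.77), Maf (0.76), Erbb4 (0.72), Dlx2 (0.72) and Gad1 (0.71). For Dlx2 they were Gad1 (0.75), Gad2 (0.72), Dlx1 (0.72), Maf (0.69) and Nrxn3 (0.62). For Dlx5 they included Gad1 (0.62), Dlx2 (0.61) and Gad2 (0.58). For Dlx6 they included Gad2 (0.55), Gad1 (0.44) and Nrxn3 (0.44). Gad1 and Gad2 encode the enzymes of GABA synthesis, Erbb4 a neuregulin receptor, Nrxn3 a presynaptic adhesion protein and Maf a transcription factor of interneurons. Within the 57 interneuron cells alone none of these 5 remained for any Dlx gene. The gene most like each was then Tcf4 for Dlx1 (0.62), Mn1 for Dlx2 (0.64), Srp19 for Dlx5 (0.68) and Gmppb for Dlx6 (0.54).

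Genes around the Dlx genes in the pathway were read from lists. Of 10 genes reported to fall in mice without Dlx1 and Dlx2, 9 were higher by at least 1 in interneuron than in glutamatergic cells, against 6.07% of genes, with a median log2 difference of 2.12 against -0.02 over all genes compared. Among them were Gad1 (7.87), Gad2 (6.96), Sp9 (2.74) and Cxcr4 (1.46), the last a chemokine receptor of migrating interneurons. The exception was Pou3f4 at 0.19. Of 5 genes reported to rise in such mice, 1 was higher and 1 lower (Nrp2, a semaphorin receptor, -1.12), against 9.74% of all genes lower. Pak3, Hes5 and Olig2 stood at 0.83, 0.28 and -0.30. Gsx1 and Gsx2, which act upstream of the Dlx genes in the eminences, were each found in 2 interneuron cells, too few to be compared. Of the other family members, Dlx3 had a count in 2 interneuron cells and Dlx4 in none.

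The list of interneuron transcription factors names genes of interneurons and was chosen with earlier results of these data known. Its outcome between interneuron and glutamatergic cells was thus largely set beforehand. Sp8 and Npas1 are also on the list of genes reported to fall without Dlx1 and Dlx2. All 10 factors were higher in interneuron than in glutamatergic cells, against 6.07% of genes. Their median was 3.33, against -0.02 over all genes. Lhx6 (7.04), Npas1 (5.21) and Maf (4.72) were among them. Between MGE-derived and CGE-derived cells they divided, with 4 higher, against 17.4% of genes (among them Lhx6 8.31, Satb1 5.67 and Sox6 3.75), and 5 lower, against 10.8% (Prox1 -5.31, Sp8 -4.41, Nr2f2 -4.20, Nr2f1 -3.02, Npas1 -1.38). Of the 10 genes reported to fall without Dlx1 and Dlx2, 1 was higher (17.4% of genes) and 6 were lower (10.8% of genes) in MGE-derived cells, the 6 including Tshz1 (-3.38), Zeb2 (-1.65) and Gad1 (-1.37). The median of that list was -1.23, against 0.22 over all genes. Between MGE-derived 1 and 2, 4 of the 10 were lower in MGE-derived 1, against 22.6% of genes, among them Zeb2 (-3.21), Gad2 (-2.42) and Npas1 (-2.14). The median of the list was -0.36, against -0.39 over all genes.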

How the data were processed

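RNA of single cells was sequenced. The tools named, with no versions, are Trimmomatic, STAR and featureCounts, and the build is GRCm38, per the submitters' processing notes. The authors deposited whole-number counts per gene and cell by Ensembl identifier (22880 rows) and by symbol, and a normalized signal table whose scaling is not given in the sources used here. The table by symbol was held in part; for the 4 Dlx genes its counts were equal to the Ensembl table's in 162 of 162 cells. Symbols came from GENCODE M21 (22570 rows matched). No column was unmapped and no 2 cells had identical counts.

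CPM were taken over the total of a cell or of a group. A gene entered a comparison where 10% or more of the cells on either side held a count. The members and gene lists were chosen with earlier results of these data known. The genes named are the members, the members of the lists and the 5 genes most like each member; some genes of these sets are not reported here. Markers of single cells that stand apart were chosen after their values were seen. Amplified reads with no molecular identifier may repeat a molecule, which the intervals do not cover. Alternatives were other pseudocounts, TMM scaling (edgeR 4.0.16, R 4.3.3), the authors' normalized table, other cells and other detection rules. Python 3.11.15 with pandas 2.3.3 and scipy 1.17.1 was used. The calculation of differences was run on simulated Poisson counts. These lacked the spread between real cells, so that run says nothing about how stable the Dlx differences are.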

Additional observations from a re-analysis of the deposited data

Results flagged for a closer look

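By a gap test on log2(CPM + 1) in groups of 4 to 10 cells, 4 of 15 values examined lay far from their group. Chance alone marks about 1 in 20 groups of continuous values; that rate does not hold where all cells but 1 are at 0, as in 3 of the 4, which are marked at any level. In the Lhx6 line of MGE-derived 2, cell 3 had 0 CPM of Dlx1, and the other 6 cells had 181 CPM or more. Among the 8 VZ-derived cells of the Htr3a line, cell 6 had 191 CPM of Dlx2, cell 3 had 274 CPM of Dlx5 and cell 8 had 0.114 CPM of Dlx1, a single count; each was the only cell of the 8 above 0 for that gene.

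The 14 cells that failed quality control are in no comparison, and some carried Dlx genes. Their summed counts gave 737 CPM of Dlx1, 101 CPM of Dlx2 and 136 CPM of Dlx5, with no count of Dlx6. Dlx1 came from 2 cells, with 6188 CPM in an Lhx6 line cell labelled Undefined (1344 CPM in the highest cell that passed) and 2540 CPM in an Htr3a line cell labelled CGE-derived. Dlx2 came from 2 cells (630 CPM in an Lhx6 line cell labelled MGE-derived 1 and 173 CPM) and Dlx5 mainly from 1 (1050 CPM in an Lhx6 line cell labelled Undefined).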

How the results depend on the processing

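No called difference of means changed direction under the alternatives run; summed counts, a different measure, gave the opposite direction for Dlx1 between MGE-derived 1 and 2 (355 and 293 CPM). Of 320 recomputed log2 differences of the 4 genes, 318 moved by less than the spread over cells. The 2 others were the Dlx1 difference between interneuron and glutamatergic labels, 9.32 with a pseudocount of 0.1 CPM and 4.02 with one of 10 CPM. That spread is a wide margin, so the count says little about stability. Within MGE-derived 2, the Dlx1 line difference moved from -0.08 to 1.09 without cell 3 and still lay inside it (SD 3.16 and 2.57). With a pseudocount of 10 CPM, 1 gene was lower in MGE-derived 1 than in MGE-derived 2, 1 was higher in the Lhx6 line within MGE-derived 1, and 0 were higher in Cajal Retzius than in glutamatergic cells. Leaving out each cell in turn, 1 to 2 genes were higher in the Lhx6 line within MGE-derived 1, and 0 to 1 within MGE-derived 2. With a pseudocount of 10 CPM the Dlx6 difference was under 1 in size for interneuron against glutamatergic labels (0.70), MGE-derived against CGE-derived (-0.57) and the Lhx6 against the Htr3a line within MGE-derived 1 (0.62) and 2 (-0.62). With only cells of at least 4000 genes it was -0.80 for MGE-derived against CGE-derived and -0.61 for the lines within MGE-derived 2. The causes were not tested.

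Among cells with at least 4000 genes, Dlx5 was in 83.3% of MGE-derived 1 cells and Dlx2 in 0% of VZ-derived cells. With at least 10 counts required, and equally with cells thinned to 1000000 counts, Dlx2 and Dlx6 were in 0% of Glutamatergic 2 cells and Dlx1 in 0% of VZ-derived cells; 1 MGE-derived 1 cell held all 4 genes, 3 Glutamatergic 1 cells held 1 and 1 held 2, and 1 Glutamatergic 2 cell held 1. At 10 counts, 2 MGE-derived 1 cells held none, 2 Cajal Retzius cells held 1 gene and 4 Undefined cells held 2. After thinning, 5 Undefined cells held 2 genes and 1 held 3. Within the interneuron labels, 0 of the 5 genes most like Dlx1, Dlx2, Dlx5 or Dlx6 were shared with the 5 over all passed cells.

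No paired analysis was possible because the replicate numbers only name cells in accession order and no result comes from a test. Shallow cells limit what is seen of Dlx6, whose levels are low, and a cell at 0 may hold the gene below detection. Groups of 4 to 7 cells, the lack of animal labels and the Htr3a line origin of every CGE-derived cell limit each comparison. Without the 4 cells that stand apart, an alternative chosen after seeing the data, the interneuron minus glutamatergic differences were 6.63 for Dlx1, 6.32 for Dlx2, 4.10 for Dlx5 and 1.80 for Dlx6.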
